A study of Mus musculus with 6 samples.

Results

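GABA and glycine are the fast inhibitory transmitters of the retina, and 7 genes that encode subunits of their ionotropic receptors were examined in whole retina 4 weeks after elevation of intraocular pressure. The genes were chosen by name, with earlier results of these data known. They were *Gabrr1* and *Gabrr2* (subunits of the GABA receptors long called GABA-C), *Gabra2* (a GABA-A alpha subunit), *Glra1*, *Glra2* and *Glra3* (glycine receptor alpha subunits) and *Glrb* (the glycine receptor beta subunit). All 7 are among the 31169 genes of the count table, and all 7 were among the 17707 genes that passed the filter on low counts and were tested. The study used C57BL/6 mice that received an injection into the anterior chamber at 1 month of age, either of saline (3 retinal libraries) or of 15 μm polystyrene microbeads (3 retinal libraries). Beads lodged in the drainage angle slow the exit of aqueous humor, and intraocular pressure rises. Retinas were taken after 4 weeks, at 2 months of age, and no mutation or transgene is named for either group. Each library is a whole retina, and the labels do not say whether any 2 retinas came from the same mouse, so that p-values measure the spread between these retinas only. In such bulk samples, fewer cells of a type and less RNA per cell cannot be told apart.

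GABA-A and glycine receptors are chloride channels of the Cys-loop family and are pentamers around a central pore. The subunits encoded by the *Gabrr* genes form the slowly desensitizing GABA receptors of bipolar cell axon terminals, where GABA from amacrine cells limits transmitter release. Glycine receptors are found on bipolar, amacrine and ganglion cells. Their alpha subunit sets the kinetics of the current, with fast responses from alpha1 and slower responses from alpha2 and alpha3. The beta subunit binds gephyrin and so anchors the receptor at the synapse.

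The loci of the members give the context in which the transcripts were counted. Positions are those of GRCm38 with the GENCODE vM21 gene models. *Gabrr2* (chromosome 4, 33062999 to 33095865) and *Gabrr1* (chromosome 4, 33132521 to 33163588) lie in tandem on the forward strand, 36655 bases apart with 0 annotated genes between them. *Gabra2* lies on chromosome 5 (70957597 to 71095849, reverse strand), *Glra1* on chromosome 11 (55514238 to 55608198, reverse strand) and *Glra2* on chromosome X (165129017 to 165327393, reverse strand). *Glra3* lies on chromosome 8 (55940460 to 56130070, forward strand) and *Glrb* on chromosome 3 (80843599 to 80913660, reverse strand).

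The sequence just before the transcription start is shown for 4 members. *Gabrr2* and *Gabrr1* are shown as neighbors whose levels were the most alike between groups, and *Glra2* and *Glrb* as the pair whose levels were the most alike across libraries. The sequences are from RefSeq (GRCm38.p6), on the strand of the gene and 5′ to 3′, and end before the GENCODE gene begins. Capitals mark the letters TAATCC on either strand, a sequence that retinal homeodomain factors such as OTX2 and CRX recognize.

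Gabrr2 chr4:33062862-33062998 (forward): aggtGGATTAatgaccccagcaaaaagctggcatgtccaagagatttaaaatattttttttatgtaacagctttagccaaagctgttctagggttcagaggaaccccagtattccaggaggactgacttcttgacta

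Gabrr1 chr4:33132306-33132520 (forward): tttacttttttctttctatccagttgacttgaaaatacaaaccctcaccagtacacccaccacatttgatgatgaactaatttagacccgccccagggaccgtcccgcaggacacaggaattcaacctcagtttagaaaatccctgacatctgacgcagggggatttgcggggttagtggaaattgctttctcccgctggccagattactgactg

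Glra2 chrX:165327394-165327643 (reverse): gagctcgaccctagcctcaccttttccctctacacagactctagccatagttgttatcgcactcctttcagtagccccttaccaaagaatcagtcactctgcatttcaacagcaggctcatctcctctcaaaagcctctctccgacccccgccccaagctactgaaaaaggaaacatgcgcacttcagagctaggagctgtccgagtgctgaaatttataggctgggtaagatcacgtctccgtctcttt

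Glrb chr3:80913661-80913910 (reverse): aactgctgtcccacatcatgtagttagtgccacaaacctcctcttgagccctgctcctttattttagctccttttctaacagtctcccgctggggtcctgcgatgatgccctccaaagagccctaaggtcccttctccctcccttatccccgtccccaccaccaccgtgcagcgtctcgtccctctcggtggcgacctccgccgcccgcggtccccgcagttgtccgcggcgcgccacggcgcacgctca

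Of the 7 members, 6 had a promoter entry in this set. In the full 250-base windows, TAATCC was found once in *Gabrr2* and once in *Gabra2*, and in 0 copies in *Gabrr1*, *Glra2*, *Glra3* and *Glrb*. Of all 32851 windows of this length, 6.25% held the motif. The *Glrb* window held 20 CpG dinucleotides and the *Gabra2* window 18. *Gabrr2* held 1, *Glra3* 4, *Gabrr1* 7 and *Glra2* 8, against a median of 6 over all windows. No binding was measured here, so that these matches describe the sequence alone.

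Reads of the 7 genes can be told from those of other genes by sequence. Of the 100-base stretches in their transcripts, 0.114% of those of *Gabra2* and 0.578% of those of *Glrb* occur in transcripts of another gene, and 0% for the other 5. An antisense gene, *Gm12236*, overlaps 141 exonic bases of *Glra1* (5.84%). The libraries were made with a stranded kit, but the strand setting of the counting is not given in the sources used here. Reads of *Glra1* and of its antisense partner may therefore be mixed over that stretch.

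The libraries differed in depth by group. Saline libraries held 36085737 to 46481382 counts and microbead libraries 13574949 to 19834366 counts. A count of 3 corresponded to 0.0622 to 0.217 CPM (counts per 1000000 counts, after TMM scaling). The share of counts on the mitochondrial genome was 3.19 to 3.57% in saline and 8.90 to 10.6% in microbead libraries. The library names in the sample descriptions are of a different series in each group, although the sample titles are numbered in one run, so that a series effect and the injection cannot be told apart. Of the cone photoreceptor markers, 7 of 7 were detected in every library, with summed levels of 1101 to 1345 CPM in saline and 1234 to 1521 CPM in microbead libraries. Saline replicate 1 stood apart for ganglion and amacrine cell markers. Its 12 ganglion cell markers summed to 381 CPM, where saline replicates 2 and 3 had 1103 and 1413 CPM and the microbead libraries 948 to 1299 CPM. Its 10 amacrine markers summed to 795 CPM, where saline replicates 2 and 3 had 1258 and 1421 CPM and the microbead libraries 1311 to 1512 CPM. Values without this library are given beside the results whose call it changes.

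In microbead-injected retina, the mean transcript levels of *Glra1*, *Glra2*, *Glra3*, *Gabra2* and *Glrb* were lower than in saline-injected retina. *Gabrr1* and *Gabrr2* differed least, with log2 fold changes of -0.01 and 0.21. None of the 7 differences passed an adjusted p-value of 0.05. The test was edgeR's quasi-likelihood test, adjusted over all 17707 genes, of which 12.8% passed. The log2 fold change was negative for 6 of the 7 members. The count was 5 with RLE or upper-quartile scaling, without mitochondrial genes in the library sizes, and with at least 10 counts in every library. It was also 5 with limma-voom and with the replicate number as a term in the model. Without saline replicate 3, microbead replicate 2 or microbead replicate 3 it was 5 as well. *Gabrr1* was the gene that turned in each of these settings. The median of the 7 was -0.71, beside -0.03 over all tested genes. The unadjusted p-value was under 0.05 and the direction lower for 4 members (*Glra1*, *Glra3*, *Gabra2* and *Glra2*), a result that 16.2% of all tested genes shared. The groups did not overlap, with microbead lower, for *Glra1* alone of the 7 (18.9% of all tested genes), and with microbead higher for *Gabrr2* alone (18.8% of all tested genes). Among markers of other retinal cells, the 5 horizontal cell markers summed to 299 to 365 CPM in saline and 218 to 288 CPM in microbead retina, and the 5 endothelial markers to 202 to 278 and 111 to 155 CPM. The 4 oligodendrocyte markers summed to 38.3 to 42.7 CPM in saline and 33.8 to 35.9 CPM in microbead retina. All of these sums were lower in the microbead group without overlap. *Prox1* was the largest part of the horizontal cell sum, at 201 to 251 CPM in saline and 154 to 215 CPM in microbead retina, with overlap. The part of these marker sums in the subunit differences was not tested.

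**Figure D1:**
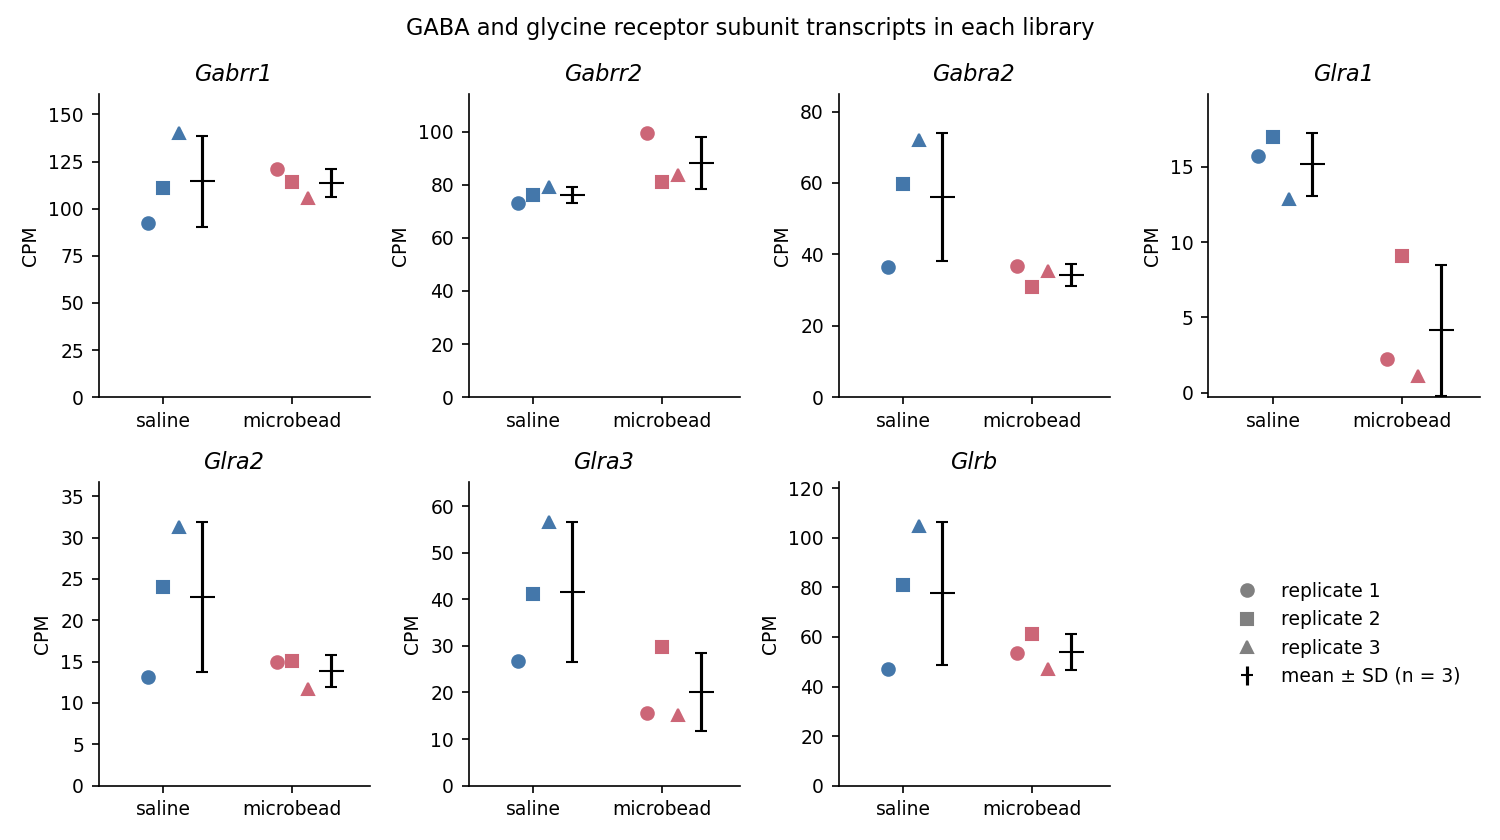
Transcript level (CPM, vertical axes starting at or just below 0) of each of the 7 subunits in the 3 saline (blue) and 3 microbead (red) libraries, with the mean ± SD beside the points. For *Glra1*, all 3 microbead libraries (1.10 to 9.10 CPM) lie under all 3 saline libraries (12.9 to 16.9 CPM).

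*Glra1* had the largest difference of the 7. This gene encodes the alpha1 subunit, which carries fast glycine currents and whose mutation causes startle disease. It was counted 592, 817 and 451 times in the saline libraries and 43, 126 and 17 times in the microbead libraries. These counts correspond to 15.7, 16.9 and 12.9 CPM in saline retina and to 2.21, 9.10 and 1.10 CPM in microbead retina. The 3 saline retinas were close together, and the microbead retinas were spread, with replicate 2 well above the other two. The means were 15.2 ± 2.09 and 4.14 ± 4.33 CPM (SD, n = 3 each). The log2 fold change was -1.89 (standard error 0.61, 95% interval -3.25 to -0.53, adjusted p = 0.0684 from edgeR). Counting error alone was small beside this spread: the 17 counts of microbead replicate 3 allow 0.643 to 1.77 CPM (95% exact Poisson interval), and the 126 counts of replicate 2 allow 7.58 to 10.8 CPM. Without microbead replicate 2, the log2 fold change was -3.16 (adjusted p = 0.0181 from edgeR, a fit in which 1.73% of genes were called lower), and without microbead replicate 3 it was -1.45 (adjusted p = 0.170). The call also depended on the model. It was made by limma-voom (-2.46, adjusted p = 0.0239, with 5.86% of genes called lower) and by edgeR with no filter on low counts (-1.94, with 7.09% called lower). It was also made by edgeR with bias-adjusted dispersions, an alternative chosen after the data were seen (-1.93, adjusted p = 0.0406, with 6.98% of genes called lower). It was not made by DESeq2 (-1.88, adjusted p = 0.0977). Nor was it made by edgeR with RLE or upper-quartile scaling, or without mitochondrial genes in the library sizes. The same held with at least 10 counts in every library, and with the replicate number as a term in the model. Unlike the other 6 members, *Glra1* was not lowest in saline replicate 1 among the saline libraries.

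*Glra3* encodes the alpha3 subunit, found in the retina at amacrine and ganglion cell synapses. It was measured at 26.7, 41.1 and 56.7 CPM in saline retina and at 15.5, 29.8 and 15.1 CPM in microbead retina. Microbead replicate 2 was again the highest of its group, and it lay above saline replicate 1, so that the groups overlapped. The means were 41.5 ± 15.0 and 20.1 ± 8.34 CPM (SD, n = 3 each). This is a log2 fold change of -1.05 (standard error 0.33, 95% interval -1.80 to -0.30, adjusted p = 0.0678 from edgeR). DESeq2 called it lower at the same size (-1.05, adjusted p = 0.0174), where 8.88% of genes were called lower. It was -1.29 without saline replicate 1 (adjusted p = 0.0228 from edgeR) and -0.76 without saline replicate 3 (adjusted p = 0.157).

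*Glra2* encodes the alpha2 subunit, the prevalent alpha subunit of immature neurons that persists in the adult retina. It was measured at 13.1, 24.1 and 31.2 CPM in saline retina and at 14.9, 15.1 and 11.7 CPM in microbead retina. The microbead retinas were close together, and saline replicate 1 fell among them. The change was estimated at -0.71 on the log2 scale (standard error 0.30, 95% interval -1.39 to -0.04, adjusted p = 0.141 from edgeR). It was -0.99 without saline replicate 1 (adjusted p = 0.0215 from edgeR) and -0.42 without saline replicate 3 (adjusted p = 0.373).

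*Glrb*, the beta subunit partner of these alpha subunits, was measured at 47.2, 81.1 and 105 CPM in saline retina and at 53.7, 61.4 and 47.0 CPM in microbead retina. Saline replicate 1 lay within the microbead range, and the other saline libraries lay above it. On the log2 scale the fold change was -0.52 (standard error 0.27, 95% interval -1.13 to 0.08, adjusted p = 0.219 from edgeR). It was -0.78 without saline replicate 1 (adjusted p = 0.0348 from edgeR) and -0.25 without saline replicate 3 (adjusted p = 0.550).

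The ratio of alpha to beta subunit read counts was compared within libraries, where library size has no part. These counts were not scaled by exon length, unlike the shares given below, so that longer transcripts weigh more in the ratio. The count ratio of *Glra1*, *Glra2* and *Glra3* summed to *Glrb* was 1.18, 1.01 and 0.963 in saline retina and 0.608, 0.879 and 0.593 in microbead retina. All microbead ratios lay under all saline ratios. On the log2 scale the means were 0.07 ± 0.15 and -0.55 ± 0.32 (SD, n = 3 each), a difference of -0.62 (-0.80 to -0.52 when single libraries were dropped). No test was made of this ratio. *Glra4*, a further alpha subunit gene, was left out of this ratio and of the shares that follow. Its mean was 1.22 CPM per kilobase of exon in saline and 1.20 in microbead retina, beside 6.29 and 1.71 for *Glra1*. In microbead replicate 3 *Glra4* (1.29) lay above *Glra1* (0.457), and in microbead replicates 1 and 2 it lay under it. Among *Glra1*, *Glra2* and *Glra3*, *Glra1* made up 47.9, 36.7 and 24.9% of the transcripts per length in saline retina and 12.5, 32.0 and 7.88% in microbead retina. *Glra2* made up 30.7, 39.9 and 46.3% in saline and 64.5, 40.6 and 63.9% in microbead retina. The share of *Glra3* was 21.3 to 28.8% in saline and 23.0 to 28.2% in microbead retina. For each of the 3 shares the groups overlapped. The *Glra1* and *Glra2* shares of microbead replicate 2 fell inside the saline range, and those of microbead replicates 1 and 3 fell outside it.

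**Figure D2:**
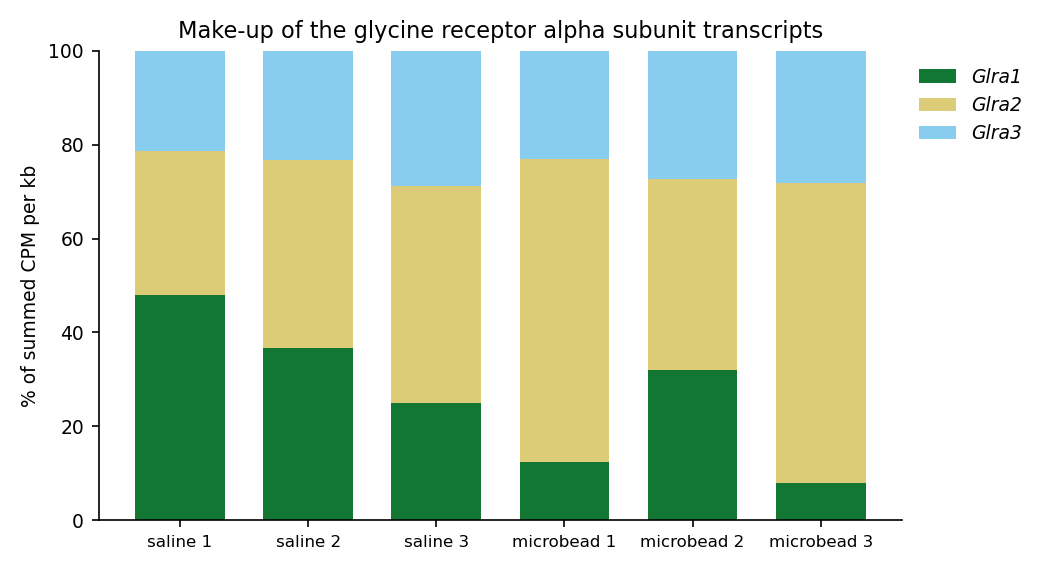
Share of *Glra1*, *Glra2* and *Glra3* in the sum of these alpha subunit transcripts, without *Glra4* (percent of CPM per kilobase of exon, stacked bars from 0 to 100), in each library. *Glra1* makes up 12.5 and 7.88% in microbead replicates 1 and 3, and 24.9 to 47.9% in the other 4 libraries.

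*Gabra2* encodes an alpha subunit of the GABA-A receptors at synapses. It was measured at 36.5, 59.6 and 71.9 CPM in saline retina and at 36.8, 30.9 and 35.3 CPM in microbead retina. The microbead retinas lay within a narrow range, and only saline replicate 1 overlapped with them. The means were 56.0 ± 18.0 and 34.3 ± 3.06 CPM (SD, n = 3 each). This gave a log2 fold change of -0.71 (standard error 0.24, 95% interval -1.25 to -0.16, adjusted p = 0.0831 from edgeR). It was -0.94 without saline replicate 1 (adjusted p = 0.0160 from edgeR) and -0.49 without saline replicate 3 (adjusted p = 0.209).

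*Gabrr1* and *Gabrr2* differed little between the groups. This does not extend to *Gabrr3*, described below, with a log2 fold change of -1.06 (adjusted p = 0.0699 from edgeR). *Gabrr1* was measured at 92.5, 111 and 140 CPM in saline retina and at 121, 114 and 106 CPM in microbead retina. All microbead values fell inside the saline range. The log2 fold change was -0.01 (standard error 0.19, 95% interval -0.44 to 0.41, adjusted p = 0.978 from edgeR), and its sign turned with the scaling of the libraries (0.01 with RLE and 0.03 with upper-quartile scaling). It was -0.15 without saline replicate 1 and 0.16 without saline replicate 3. *Gabrr2* was measured at 73.0, 76.1 and 79.0 CPM in saline retina and at 99.5, 81.2 and 83.8 CPM in microbead retina. The microbead values were slightly above all saline values, with replicate 1 the highest. Its log2 fold change was 0.21 (standard error 0.16, 95% interval -0.15 to 0.57, adjusted p = 0.396 from edgeR). The count ratio of *Gabrr1* to *Gabrr2* was 1.27, 1.46 and 1.77 in saline and 1.22, 1.41 and 1.26 in microbead retina, with overlap. The log2 ratio differed by -0.20 between the groups, and by -0.31 without saline replicate 1. The 17 bipolar cell markers, from the cells in which GABA-C receptors are best known, summed to 1928 to 2433 CPM in saline and 1881 to 2341 CPM in microbead retina, also with overlap.

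With saline replicate 1 left out, 4 of the 7 members (*Glra3*, *Gabra2*, *Glra2* and *Glrb*) were called lower, in a fit in which 7.30% of all genes were called lower. This library was the lowest of the 3 saline libraries for 6 of the 7 members, for 15 of the 17 other receptor subunits tested and for 32.8% of all tested genes. Its low values for ganglion and amacrine cell markers stand beside these, and their part in the result was not tested. Without any filter on low counts, edgeR called *Glra1*, *Glra3*, *Gabra2* and *Glra2* lower, and 7.09% of 31169 genes with them.

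**Figure D3:**
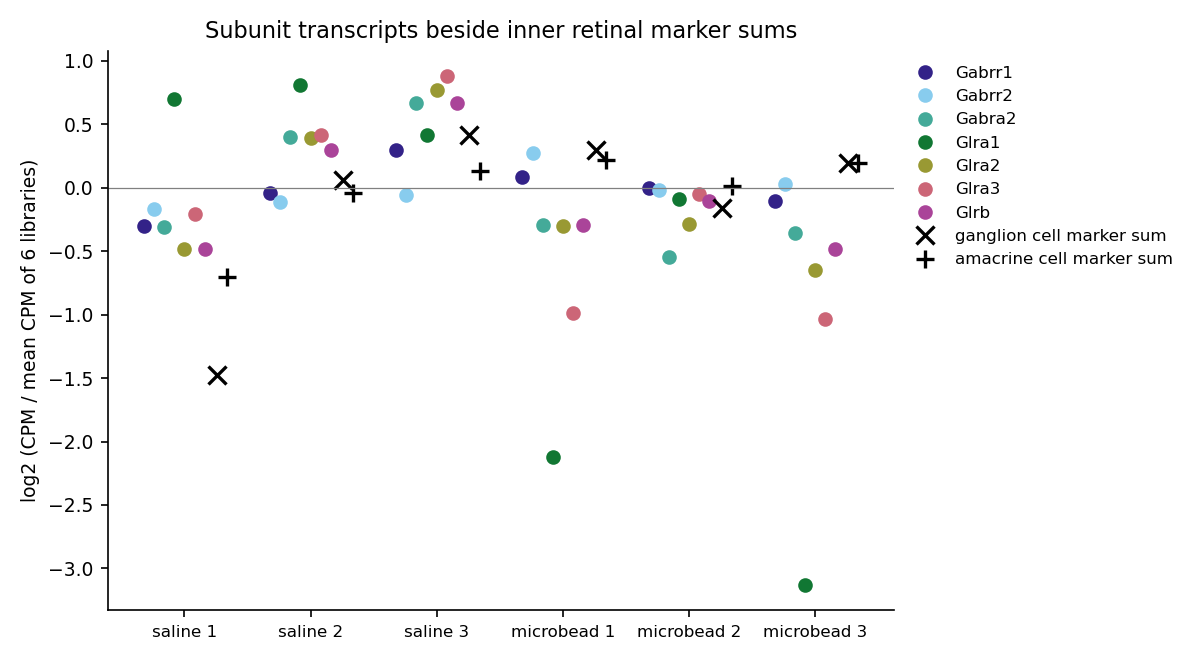
Level of each subunit and of the summed ganglion (crosses) and amacrine (plus signs) markers in each library, as log2 of CPM over the mean CPM of the 6 libraries. In saline replicate 1 the ganglion sum is 381 CPM against 948 to 1413 CPM elsewhere, and 6 of the 7 subunits have their lowest saline value there.

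Levels were set side by side per length, as CPM per kilobase of annotated exon. In saline retina the order was *Gabrr1* (50.1 ± 10.5), *Gabrr2* (36.1 ± 1.43), *Glrb* (16.7 ± 6.21), *Gabra2* (7.33 ± 2.35), *Glra2* (7.24 ± 2.89), *Glra1* (6.29 ± 0.867) and *Glra3* (4.51 ± 1.63; SD, n = 3 each). In microbead retina the order was *Gabrr1* (49.7 ± 3.29), *Gabrr2* (41.9 ± 4.70), *Glrb* (11.6 ± 1.54), *Gabra2* (4.49 ± 0.400), *Glra2* (4.41 ± 0.608), *Glra3* (2.19 ± 0.906) and *Glra1* (1.71 ± 1.79; SD, n = 3 each). The libraries of *Gabra2*, *Glra2*, *Glra1* and *Glra3* overlapped from one neighbor in this order to the next in saline retina. *Gabrr1* and *Gabrr2* overlapped in microbead but not in saline retina, and *Glrb* stood apart from its neighbors in both groups. Among all 24 receptor subunits tested, *Gabrr1* and *Gabrr2* ranked 1 and 2 per length in both groups. The exon lengths, 2105 bases for *Gabrr2* to 9208 bases for *Glra3*, include every annotated transcript, so that the scale is lower for genes with long rarely used exons.

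Members resembled each other to different degrees across the 6 libraries. On log2 CPM, Pearson's r was 0.986 for *Glra2* and *Glrb*, 0.935 for *Gabra2* and *Glra2*, and 0.850 for *Glra1* and *Glra3*. It was 0.380 for *Gabrr1* and *Gabrr2*, which lie in tandem, and -0.730 for *Gabrr2* and *Glra1*. These values are descriptions over 6 libraries that share group and library differences. Of 15087 genes with a mean of at least 1 CPM, the most alike were *Maged2* for *Gabrr1* (r = 0.998), *Tmem144* for *Gabrr2* (0.998), *Ywhag* for *Gabra2* (0.995), *Ddx3y* for *Glra1* (0.998), *Alcam* for *Glra2* (0.991), *Xiap* for *Glra3* (0.999) and *Kcnab1* for *Glrb* (0.998). Between 33 and 171 genes had an r over 0.95 with any one member.

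Of 19 further GABA-A, GABA-B and glycine receptor genes, 17 were tested and 0 passed the adjusted p-value of edgeR. At an unadjusted p-value under 0.05, 3 were lower and 1 (*Gabre*) was higher. Of all 17707 tested genes, 2861 (16.2%) were lower and 2703 were higher at that limit. *Gabre* was near the floor, with 14, 12 and 10 counts in the saline and 13, 12 and 9 in the less deep microbead libraries. Without saline replicate 1, edgeR called 3 of the 17 (*Gabrb2*, *Gabrr3* and *Gabrg1*), in the fit in which 7.30% of all genes were called lower. *Gabra6* and *Gabrp*, with at most 2 counts in any library, were not tested. The log2 fold change was negative for 15 of the 17 (14 with upper-quartile scaling and 11 without saline replicate 3) and for 52.1% of all tested genes. The median of the 17 was -0.23. The largest was that of *Gabrb2*, a beta subunit of synaptic GABA-A receptors, at -1.71 (standard error 0.57, adjusted p = 0.0748 from edgeR). It was measured at 11.7, 32.7 and 42.6 CPM in saline retina and at 3.35, 15.9 and 7.54 CPM in microbead retina, with microbead replicate 2 the highest of its group, as for *Glra1* and *Glra3*. *Gabrr3*, the remaining gene of the *Gabrr* family, had a log2 fold change of -1.06 (standard error 0.34, adjusted p = 0.0699 from edgeR), beside -0.01 for *Gabrr1* and 0.21 for *Gabrr2*. *Gabrr3* and the other *Gabrr* genes were not tested against each other. *Gabrr3*, *Gabrg1* and *Gabre* were named after their values were seen.

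**Figure D4:**
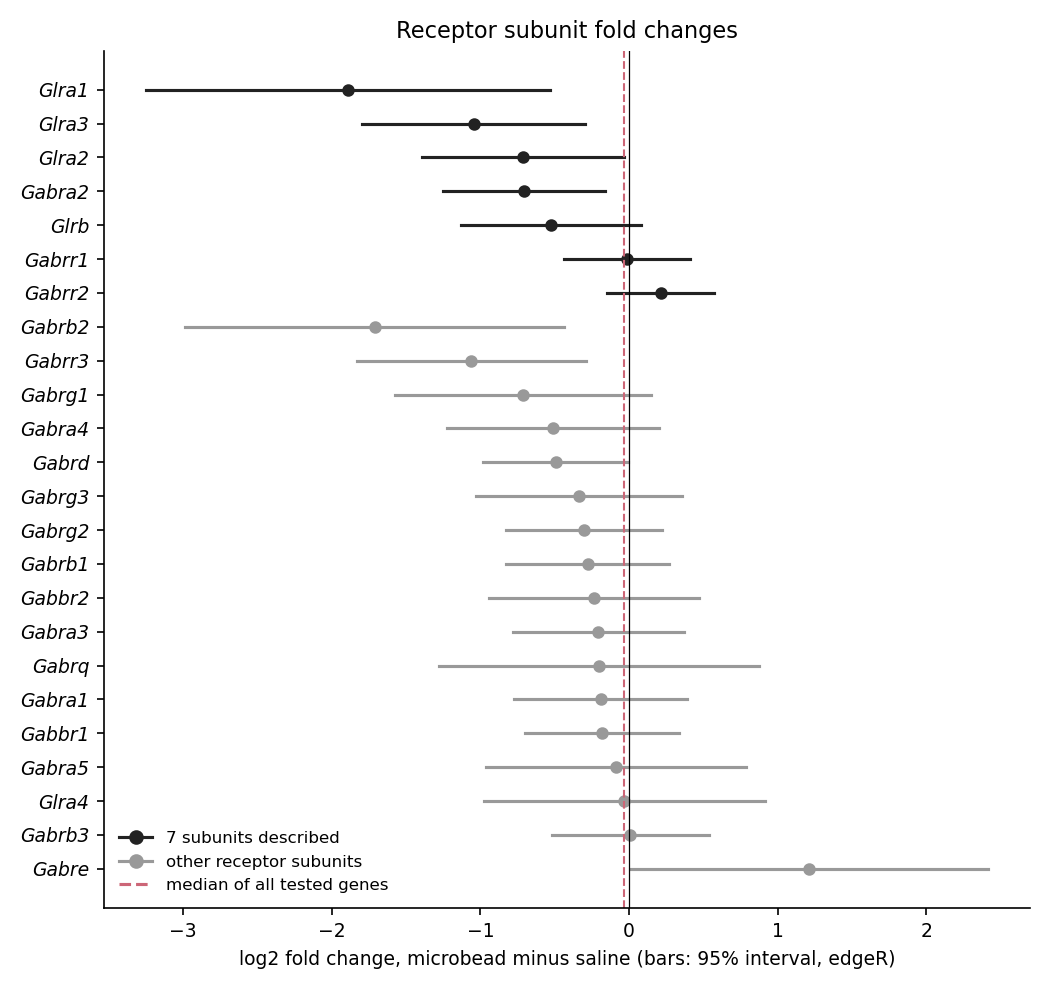
Log2 fold change (points) with its 95% interval (bars) for the 7 subunits described (black) and 17 other receptor subunits (grey), and the median of all tested genes (dashed line, -0.03). Of the 24 points, 21 are below 0, and the values run from -1.89 for *Glra1* to 1.21 for *Gabre*, which had 9 to 14 counts a library.

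Of 14 genes for assembling inhibitory synapses, all tested, 4 passed edgeR's adjusted p-value, 3 lower and 1 higher, against the 12.8% of all genes. Their median was -0.17. *Gabarapl2*, of the family of GABARAP proteins that act in autophagy and receptor trafficking, fell from 99.8, 107 and 141 CPM to 53.4, 34.4 and 38.3 CPM (log2 fold change -1.46, standard error 0.22, adjusted p = 0.0110). *Shisa7*, which encodes a GABA-A receptor auxiliary subunit, rose from 12.7, 20.1 and 19.4 CPM to 32.8, 46.4 and 55.9 CPM (1.37, standard error 0.25, adjusted p = 0.0159). *Lhfpl4*, which links GABA-A receptors to neuroligin 2, fell (-0.65, adjusted p = 0.0296), as did *Plcl1*, a phospholipase C-related protein that binds GABARAP (-0.92, adjusted p = 0.0279). *Gabarapl2* and *Shisa7* passed with each library left out except microbead replicate 3, a fit in which 46 genes of the whole table passed. *Lhfpl4* and *Plcl1* passed without saline replicate 1, and did not pass without any other library or with a replicate block (the replicate number as a term in the model).

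Of 11 genes for the supply of GABA and glycine, 2 passed edgeR's adjusted p-value, both lower, where 12.8% of all tested genes passed in either direction. All 11 had a negative log2 fold change (10 with limma-voom, with the replicate block, and without saline replicate 3, microbead replicate 1 or microbead replicate 2), as did 52.1% of all tested genes. Their median was -0.45, beside -0.03 over all tested genes. The genes that passed were *Gldc*, of the glycine cleavage system (-0.74, adjusted p = 0.0432), and *Aldh5a1*, which oxidizes succinic semialdehyde in GABA breakdown (-0.75, adjusted p = 0.0455). Neither passed with upper-quartile scaling, limma-voom or the replicate block, or without any one of saline replicates 2 and 3 and microbead replicates 1, 2 and 3. *Gldc* also did not pass without saline replicate 1, where 5 others of the list did. The largest difference was that of *Gad1*, the main GABA-synthesizing enzyme (-0.78, adjusted p = 0.0720), at 237, 382 and 488 CPM in saline and 241, 198 and 207 CPM in microbead retina. *Gad1* was called lower by DESeq2 (with 8.88% of genes called lower) and by edgeR with no filter on low counts (7.09%). It was also called lower without saline replicate 1 (7.30%).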

How the data were processed

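Poly(A) RNA of whole mouse retina was sequenced on a NovaSeq as stranded 100-bp paired-end libraries, with 3 saline and 3 microbead retinas. The authors aligned reads with STAR 2.5.3a to GRCm38.p5 (GENCODE vM12) and counted them per gene with featureCounts 1.15.2. The deposited counts are raw read counts, with no normalization. The setting for multi-mapping reads is not given in the sources used here. The deposited table also holds the authors' own DESeq2 comparison (a mean normalized count as a signal, a log2 fold change, a fold change as a ratio, p-values and a call), which was not used.

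Low counts were removed by filterByExpr (minimum count of 10 and minimum total of 15), and the rest scaled by TMM and tested with edgeR 4.0.16 (quasi-likelihood, group as the single term, R 4.3.3), with p-values adjusted by Benjamini-Hochberg across every tested gene and a threshold of 0.05. The standard error is the absolute log2 fold change over the square root of F. Exact Poisson intervals cover counting error only. The code was tested on simulated data. Exon lengths come from GENCODE vM21 and may differ from vM12. Other settings tried were upper-quartile and RLE scaling, totals that leave out mitochondrial genes, 2 other filters, DESeq2 1.42.0, limma-voom (limma 3.58.1), a replicate block, a 2-fold limit and each library left out. The 7 members and the gene lists were chosen with earlier results of these data known. Beyond the members, the genes named were, in each list, those past the threshold (at most 6) and the one with the largest absolute log2 fold change, and for each member the gene of at least 1 CPM with the highest Pearson correlation over the 6 libraries. Exceptions are named where they occur. An exact permutation test of 3 against 3 libraries cannot give a p-value under 0.1 and was not used.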

Additional observations from a re-analysis of the deposited data

How the results depend on the processing

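No member changed from a call to no call, since edgeR called 0 of the 7 (4 at an unadjusted p-value under 0.05). Calls were gained with no filter on low counts (4 members: *Glra1* -1.94, *Glra3* -1.10, *Gabra2* -0.76, *Glra2* -0.77), with DESeq2 (1: *Glra3* -1.05), with limma-voom (1: *Glra1* -2.46) and with bias-adjusted dispersions, an alternative chosen after seeing the data (1: *Glra1* -1.93). With each library left out in turn, 0 to 4 members were called. The log2 fold changes then ran from -0.94 to -0.49 for *Gabra2*, -3.16 to -1.45 for *Glra1*, -0.99 to -0.42 for *Glra2*, -1.42 to -0.76 for *Glra3* and -0.78 to -0.25 for *Glrb*. The cause of these differences was not tested.

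The number of other receptor subunits called was 2 with no filter, 1 with DESeq2 and 0 to 3 with a library left out. For synapse assembly it was 2 with the 2-fold limit and 0 to 4 with a library left out. For GABA and glycine supply it was 1 with RLE scaling, 0 with upper-quartile scaling and 1 without mitochondrial genes in the library sizes. The supply count was 5 with no filter, 3 with DESeq2, 0 with limma-voom, 0 with the 2-fold limit and 0 to 5 with a library left out. Over all genes it was 3720 with no filter, 3621 with DESeq2, 1248 with the 2-fold limit and 46 (without microbead replicate 3) to 2621 (without saline replicate 1), with 293 without saline replicate 2.

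The replicate numbers do not mark shared animals in the labels. Same-numbered libraries deviated from their group means with correlations of -0.04, 0.14 and 0.01. Over all pairings of a saline with a microbead library, the values ran from -0.20 to 0.14. The study injected both eyes of a mouse with the same material, so that saline and microbead libraries were from different mice. With means of 3 libraries a group, these values cannot tell whether libraries shared a batch. Both retinas of a mouse may be in the same group, and shared animals within a group were not examined. With the replicate block, edgeR called 0 members (*Glra1* -2.35, adjusted p = 0.0526), 1 other subunit, 2 synapse assembly genes, 0 supply genes and 905 genes in all.

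For *Glra1*, with 17 to 126 counts in the microbead libraries, the spread between retinas was larger than the counting error. With 3 libraries a group, a small change cannot be told from no change. The series of library names differs with the group, so that a library effect cannot be told apart from the injection.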

Other observations

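Markers of tissues next to the retina differed between single libraries rather than between groups. The 5 lens markers summed to 20.4, 0.871 and 280 CPM in saline replicates 1, 2 and 3, and to 0.650 to 1.69 CPM in the microbead libraries. The 5 pigment epithelium markers summed to 11.6, 55.2 and 241 CPM in the saline libraries and to 101 to 123 CPM in the microbead libraries. Saline replicate 3, with the highest sums of both lists, also had the highest level of 6 of the 7 receptor subunits among the saline libraries, *Glra1* being the exception. The share of all tested genes that were highest in this library was not counted, so that the 6 of 7 has no background beside it. The part of adjacent tissue in these levels was not tested.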
